A study of Homo sapiens with 12 samples.

Results

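MHCC97H and PLC/PRF5 are established human liver cancer cell lines, and the 6 libraries described here show how their mRNA levels differed before EGR1 was altered in either of them. MHCC97H is a hepatocellular carcinoma line selected for its high metastatic capacity, and PLC/PRF5 is a hepatocellular carcinoma line that carries integrated hepatitis B virus DNA. Whether MHCC97H carries such DNA too was not examined here. The MHCC97H group was the parental line, and the PLC/PRF5 group was the control line, which the column names call Vector (n = 3 libraries per line). Both were labelled wild type for EGR1 and shared one culture medium, DMEM with fetal bovine serum and antibiotics. No vector is named for the parental cells, so the line, the vector and any difference in handling between the groups cannot be told apart. The other 6 of the 12 libraries came from MHCC97H labelled EGR1 knockout, made with CRISPR/Cas9 from single clones, and from PLC/PRF5 with EGR1 overexpression, and they enter only where named.

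The members were all gene rows whose mean FPKM (fragments per kilobase of transcript, scaled to the mapped fragments of the library) over the 6 libraries was at least 1, which held for 12046 of the 22963 rows. Of the 12046, 636 were loci assembled from the reads that carried no gene symbol. A gene near 0 in 1 line passed this limit only through its level in the other line, so such a gene had to differ. Differences are given as MHCC97H minus PLC/PRF5 on the log2(FPKM + 1) scale, which understates the change of genes with low FPKM. A gene was called when its Benjamini-Hochberg adjusted p in limma was under 0.05 and its difference was at least 1 on that scale.

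A hepatocyte secretes most of the proteins of blood plasma, detoxifies drugs and aldehydes, turns ammonia into urea, and makes sterols and lipoproteins. These functions are driven by a network of transcription factors that includes HNF4A, the FOXA proteins and CEBPA. Liver cancer lines keep different parts of this programme and often switch on fetal liver genes or genes normally limited to the testis.

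The libraries of each line were close to each other, with Pearson correlations of log2 values of 0.985 to 0.994 within a line and 0.679 to 0.720 between the lines. FPKM totals were 376335 to 382430 in MHCC97H and 400299 to 423577 in PLC/PRF5, and 5751 to 6269 names were listed at 0 in a library. No read counts were used here, so the depth behind each value is unknown. The values also carried a trend with base composition. The slope of a library's deviation per 10 percentage points of transcript GC content was -0.29, -0.19 and -0.083 log2 units in the MHCC97H libraries and 0.27, 0.13 and 0.17 in the PLC/PRF5 libraries (exact permutation test, two-sided p = 0.1, the smallest p that 3 against 3 libraries can give). GC content and transcript length together accounted for 7.65% of the variance of the differences over 11385 genes. Of the 4144 called genes with a known GC content, 2993 (72.2%) were still called after this trend was removed. Where a gene named below lost its call with this correction, this is stated beside it.

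The lines differed over much of the transcriptome. In all, 2123 genes were called higher in MHCC97H (17.6% of those tested) and 2308 were called lower (19.2%). These shares are the background for the counts of called genes in lists and regions below. By adjusted p alone 9607 genes (79.8%) passed, and the FPKM ranges of the lines did not overlap for 9753. The p-values measure the spread between libraries of 1 line each, not between liver cancers. The median size of the difference was 0.73, and the difference was at least 5 for 62 genes higher in MHCC97H and for 56 lower. All 3 MHCC97H libraries were listed at 0 for 159 of the genes called lower, and all 3 PLC/PRF5 libraries for 97 of those called higher. The plot of mean levels shows these genes along its axes.

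**Figure D1:**
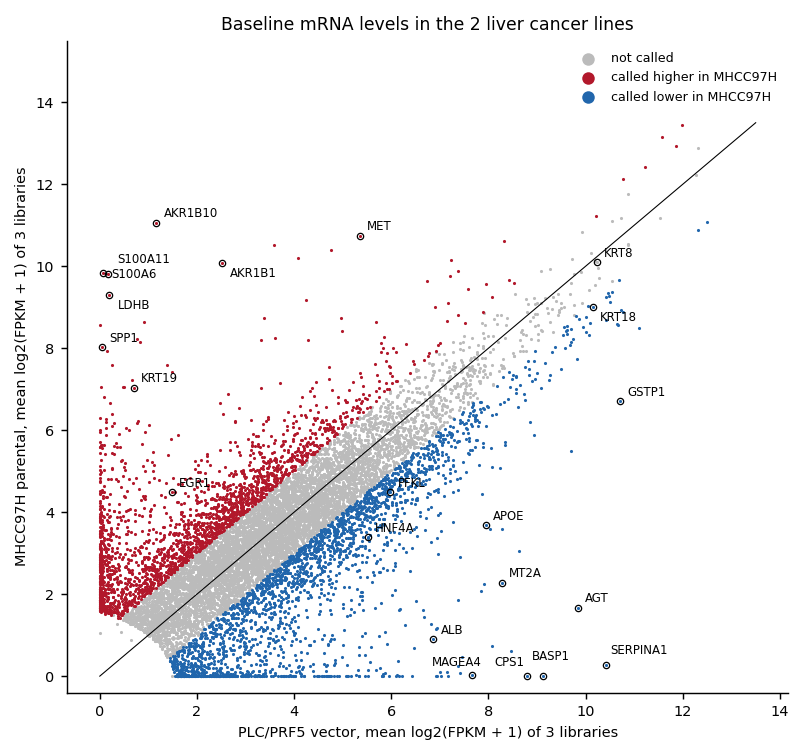
Each point is 1 gene of those tested, placed by its mean log2(FPKM + 1) over the 3 PLC/PRF5 vector libraries (x axis) and the 3 MHCC97H parental libraries (y axis), with the line of equal levels drawn. Genes called higher in MHCC97H are red and genes called lower are blue, and circled genes are named in the text, with AKR1B10 at a difference of 9.89 and SERPINA1 at -10.15.

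The largest positive difference among genes with symbols belonged to AKR1B10 (chr7:134527592-134541408, hg38, plus strand), an aldo-keto reductase that reduces retinal and reactive aldehydes. Its FPKM was 2075, 2127 and 2194 in the MHCC97H libraries and 1.25, 1.27 and 1.21 in the PLC/PRF5 libraries, a difference of 9.89 (SE 0.07, adjusted p = 1.69e-11, limma). Next came the calcium-binding proteins S100A6, with 818, 893 and 1051 FPKM against 0.0524, 0.0693 and 0, and S100A11, with 896, 886 and 913 against 0, 0.0720 and 0.333. These 3 transcripts were among the more abundant in MHCC97H and close to 0 in PLC/PRF5. LDHB (chr12:21635342-21757857), the lactate dehydrogenase subunit typical of heart muscle, stood at 651, 625 and 613 FPKM in MHCC97H and 0.183, 0.107 and 0.125 in PLC/PRF5 (difference 9.11, SE 0.08). PTGR1, a reductase of prostaglandins and leukotriene B4, was listed at 0 in the PLC/PRF5 libraries and at 369.7, 376 and 379.9 FPKM in MHCC97H. The rest of the 15 largest were SPP1, UCHL1, ALDH3A1, AKR1B1, CES1, MDFIC, GNAS, CAV2, AKR1B15 and VSIG1, with differences from 7.99 down to 6.57. GNAS, which encodes the stimulatory G protein alpha subunit that most cells use, was at 292, 275 and 281 FPKM in MHCC97H and at 0.793, 0.632 and 0.881 in PLC/PRF5. Reads that the assembly placed in a locus without a symbol would be missing from a named row, and the file gives no position by which to add them back.

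The largest negative difference was that of SERPINA1 (chr14:94376747-94390693, minus strand), which encodes the main protease inhibitor of plasma. It was at 0.189, 0.290 and 0.158 FPKM in MHCC97H and 1438, 1343 and 1334 in PLC/PRF5, a difference of -10.15 (SE 0.08, adjusted p = 2.21e-11, limma). BASP1, a membrane-bound protein first known from neurons, was listed at 0 in every MHCC97H library and at 559, 570.3 and 529 FPKM in PLC/PRF5. CPS1 (chr2:210477682-210679107), the entry enzyme of the urea cycle, was at 0, 0.0115 and 0.0202 FPKM in MHCC97H against 485, 365 and 486. For these 3 genes the PLC/PRF5 libraries were all far above the MHCC97H libraries. AGT, VTN, MAGEA4, C3, SPINT2, NTS, ASGR2, CTAG2, LYZ, ASGR1, GTSF1 and A2M completed the 15, with differences from -8.18 to -6.91. ASGR1 and ASGR2 are the subunits of the asialoglycoprotein receptor, a surface receptor of hepatocytes, and stood at 177, 185 and 159 and 163, 169 and 159 FPKM in PLC/PRF5 and under 1 FPKM in each MHCC97H library.

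**Figure D2:**
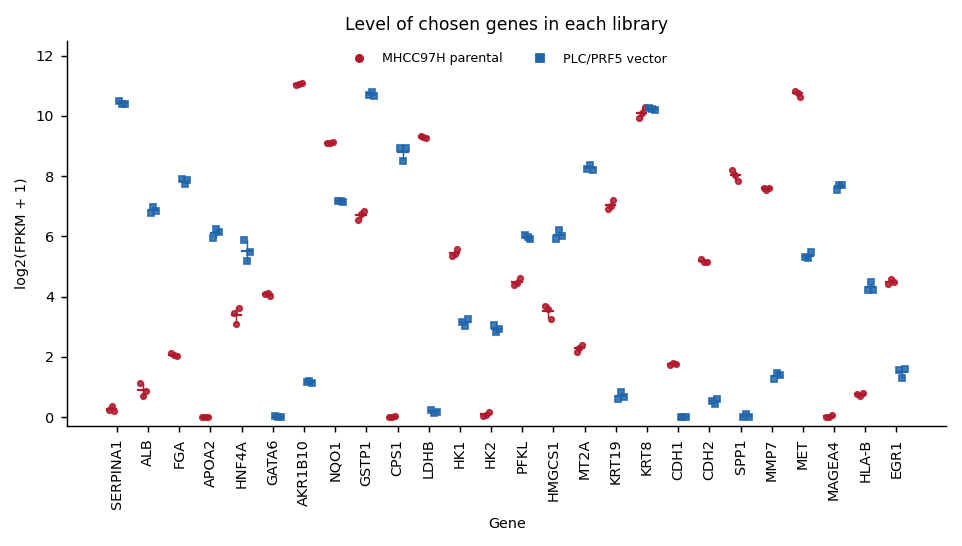
Level of chosen genes on the log2(FPKM + 1) scale, with 1 red circle for each of the 3 MHCC97H parental libraries and 1 blue square for each of the 3 PLC/PRF5 vector libraries. Short horizontal lines are means and vertical bars are SD (n = 3), and the lines are separated for every gene shown except KRT8.

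Most plasma protein genes that could be tested were lower in MHCC97H. Of 61 listed genes 31 reached the limit for testing, several of them only through PLC/PRF5, and of these 25 were lower in MHCC97H and 3 were higher, with a median difference of -2.57 against -0.016 over all tested genes. In bulk RNA, fewer cells that express a gene and less RNA of it per cell cannot be told apart. Their summed FPKM was 190.0 to 218.6 in the MHCC97H libraries and 3031 to 3090 in the PLC/PRF5 libraries. ALB, serum albumin, was at 1.21, 0.611 and 0.830 FPKM against 108, 125 and 113 (difference -5.96, SE 0.13). AMBP and TF, which encode the bikunin precursor and transferrin, differed by -5.66 and -5.53. HP, TTR, GC, CRP and SERPINC1, which normal hepatocytes also make, were below 1 FPKM on average in both lines.

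All 3 fibrinogen chains were lower in MHCC97H. FGA was at 3.34, 3.17 and 3.06 FPKM against 238, 212 and 236, FGB at 3.05, 2.04 and 2.80 against 35.5, 48.7 and 39.7, and FGG at 2.36, 1.68 and 1.29 against 81.8, 119.7 and 103. F2, the prothrombin gene, differed by -4.68 (SE 0.09). In all, 9 of the 10 coagulation genes tested were lower and none was higher, with F7 at -0.75 after the GC correction and F5 (-0.93) not called. The protease inhibitors gave 5 lower of 6, with A2M, a broad protease trap, at 0, 0 and 0.0260 FPKM against 126, 106 and 129.9.

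Complement genes were divided. C3, the central component, was at 0.0592, 0.0295 and 0.0637 FPKM in MHCC97H and 193, 143 and 178 in PLC/PRF5, and C8G and C5 were also lower, at differences of -5.12 and -1.42. C4BPA, a chain of the C4b-binding protein, went the other way with 14.3, 13.7 and 13.3 FPKM against 0.0892, 0.135 and 0.176, and C4BPB passed with a smaller difference of 1.02 (SE 0.25) that was not called when MHCC97H replicate 1, PLC/PRF5 replicate 1 or MHCC97H replicate 3 was left out. So 3 of the 6 complement genes tested were higher in MHCC97H and 3 were lower.

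The short motif GTTAAT was searched for in promoters of plasma protein genes, and 4 that hold it are shown because these genes were among those that separated the lines. The sequences are from RefSeq (GRCh38.p14), run 5′ to 3′ on the gene's strand from 140 bases before the annotated start up to the 20th base of the transcript, and have each match to GTTAAT on either strand in capitals.
ALB: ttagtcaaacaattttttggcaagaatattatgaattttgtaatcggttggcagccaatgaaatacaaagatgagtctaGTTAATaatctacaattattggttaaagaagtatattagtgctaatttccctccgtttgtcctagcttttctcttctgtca
FGA: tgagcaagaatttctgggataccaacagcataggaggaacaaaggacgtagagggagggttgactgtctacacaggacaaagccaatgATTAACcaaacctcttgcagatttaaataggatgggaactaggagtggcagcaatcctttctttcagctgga
FGB: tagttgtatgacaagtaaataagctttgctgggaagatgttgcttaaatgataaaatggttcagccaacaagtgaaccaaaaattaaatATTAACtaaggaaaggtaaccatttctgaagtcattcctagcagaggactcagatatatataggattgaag
F2: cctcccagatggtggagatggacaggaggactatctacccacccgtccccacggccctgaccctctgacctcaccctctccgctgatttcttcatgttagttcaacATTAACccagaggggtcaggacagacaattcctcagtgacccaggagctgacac
The stretches lie at chr4:73404147-73404306 (plus strand), chr4:154590723-154590882 (minus strand), chr4:154562840-154562999 (plus strand) and chr11:46719073-46719232 (plus strand). The match begins 61 bases before the start in ALB, 52 in FGA, 51 in FGB and 34 in F2. A match was present in 11 of the 43 plasma protein genes that had a promoter entry (25.6%) and in 6.89% of all 27305 promoters of the same 300-base length. C4BPA, which was higher in MHCC97H, holds it too.

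Apolipoproteins followed the plasma proteins, with 5 of 7 tested genes lower in MHCC97H. APOA2, the second protein of high density lipoprotein, was listed at 0 in MHCC97H and at 60.3, 74.3 and 69.3 FPKM in PLC/PRF5. APOB, the scaffold of very low density lipoprotein, was at 1.398, 1.205 and 1.21 against 149, 85.8 and 144, and MTTP, which loads lipid onto it, differed by -1.80 (SE 0.09). APOE was at 10.5, 11.1 and 14.3 FPKM in MHCC97H and 238, 275 and 226 in PLC/PRF5. APOA1 was low in both, at 0.185, 0.405 and 0.375 and 2.06, 4.07 and 3.39, and its difference of -1.63 became -0.95 after the GC correction. APOH was the exception among apolipoproteins, with 31.6, 28.95 and 26.4 FPKM in MHCC97H against 10.1, 16.5 and 15.4, a difference of 1.03 that fell below 1 when MHCC97H replicate 1 or PLC/PRF5 replicate 1 was left out.

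The transcription factors of the liver did not move as 1 group. Of 32 tested, 6 were higher and 12 lower, with a median of -0.27. HNF4A, the nuclear receptor at the centre of the hepatocyte network, was at 9.97, 7.57 and 11.4 FPKM in MHCC97H and 58.3, 35.0 and 43.7 in PLC/PRF5 (difference -2.12, SE 0.19). FOXA3 and PROX1 were lower, at -2.69 and -2.16, whereas FOXA1 and FOXA2 had means of 15.9 against 19.4 and 20.2 against 19.4 FPKM and were not called. CEBPA was higher, at 74.0, 78.0 and 87.5 against 31.6, 30.2 and 28.3. The GATA factors went in opposite directions. GATA6, which acts in early endoderm, was at 16.1, 16.3 and 15.1 FPKM in MHCC97H and 0.0235, 0 and 0 in PLC/PRF5, and GATA4 was at 1.99, 2.84 and 2.63 against 11.9, 9.94 and 11.4. Among the nuclear receptors, the bile acid receptor NR1H4 was at 6.40, 6.58 and 6.41 against 0.0799, 0.0297 and 0.0624, and its target and repressor partner NR0B2 was at 0.0512, 0.0406 and 0 against 5.13, 4.48 and 4.85. PPARG and RXRA, which pair on DNA, were higher by 2.15 and 1.94. ZHX2, a repressor of fetal liver genes after birth, was at 1.35, 1.25 and 1.49 against 12.47, 10.999 and 11.8.

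Of 11 oncofetal genes tested, 9 were called lower in MHCC97H, against 19.2% of all tested genes. IGF2BP3 alone was called higher (1.10, and 0.71 after the GC correction). Some of the 9, among them AFP, GPC3 and LIN28B, passed the limit for testing only through PLC/PRF5, so these had to differ. AFP, the fetal counterpart of albumin and a serum marker of liver cancer, was at 0.392, 0.345 and 0.534 FPKM against 9.11, 14.9 and 12.01. GPC3, a cell surface proteoglycan used as a liver cancer marker, was listed at 0 in MHCC97H and at 4.95, 5.94 and 5.00 in PLC/PRF5. LIN28B, which blocks maturation of let-7 microRNAs, was also listed at 0 in MHCC97H, against 12.3, 13.7 and 19.3 FPKM. HMGA2, which let-7 represses, was at 9.39, 7.79 and 7.17 against 41.1, 44.3 and 43.3.

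Genes of bile duct and progenitor cells gave a mixed result, with 3 of 8 higher and 2 lower. KRT19, a keratin of bile duct cells, was at 119, 127 and 146 FPKM in MHCC97H and 0.498, 0.792 and 0.582 in PLC/PRF5 (difference 6.34, SE 0.11). CD44, the hyaluronan receptor, was at 50.6, 47.0 and 51.4 against 1.02, 0.603 and 0.873. CD24, a surface protein also found on progenitor cells, was lower at 17.6, 16.1 and 16.1 against 94.8, 131 and 111, as was the aminopeptidase ANPEP at 6.34, 7.71 and 7.62 against 86.1, 68.5 and 79.1. EPCAM and PROM1 were near 0 in both lines, with mean EPCAM of 0.0301 and 0.0360 FPKM, below the limit for testing.

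Of 6 tested genes of the urea cycle 4 were lower in MHCC97H. CPS1 is given above. ASS1, which joins citrulline to aspartate, was at 9.71, 11.5 and 11.9 FPKM against 324, 302 and 303, and the ornithine carrier SLC25A15 was at 3.71, 3.31 and 3.42 against 26.7, 24.6 and 26.7. OTC and ARG1 were under 0.2 FPKM on average in both lines. The aspartate-glutamate carrier SLC25A13 was the exception, with 1.04 (0.86 after the GC correction). PYCR1, the last enzyme of proline synthesis, was at 0.0287, 0.0450 and 0.149 FPKM in MHCC97H and 133, 121 and 128 in PLC/PRF5, a difference of -6.90 (SE 0.09). The liver form of methionine adenosyltransferase, MAT1A, was listed at 0 in MHCC97H and at 9.13, 8.57 and 8.82 FPKM in PLC/PRF5, while the general form MAT2A had means of 152 and 87.9 and was not called.

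NRF2 is a transcription factor that KEAP1 holds in check and that turns on genes of redox defence through the antioxidant response element. Of 20 tested redox and aldo-keto reductase genes, 18 were higher in MHCC97H and none was lower, with a median difference of 2.52. Over all tested genes 17.6% were called higher and the median was -0.016. The list was chosen with earlier results of these data known, and AKR1B15 passed the limit for testing only through MHCC97H. Summed FPKM of the list was 9244 to 9478 in MHCC97H and 1360 to 1427 in PLC/PRF5. The aldo-keto reductases led the list. AKR1B1, AKR1B10 and AKR1B15 lie side by side on chromosome 7 and were at differences of 7.56, 9.89 and 6.72. The AKR1C genes of chromosome 10, which act on steroids, were higher by 5.34 for AKR1C1 down to 1.69 for AKR1C4. The near-identical pairs AKR1B10 and AKR1B15, and AKR1C1 and AKR1C2, can share reads, so the split within each pair is uncertain. NQO1, a quinone reductase and common readout of NRF2, was at 545, 549.7 and 559.8 FPKM in MHCC97H and 143, 144 and 140.3 in PLC/PRF5. SLC7A11, the cystine importer, was at 68.2, 56.0 and 41.9 against 1.44, 1.86 and 1.99, and GCLM, a subunit of the first enzyme of glutathione synthesis, was at 169, 144 and 118 against 9.97, 14.2 and 12.2. TXNRD1 and GPX2, a thioredoxin reductase and a glutathione peroxidase, were higher by 2.90 and 2.94 (SE 0.07 and 0.09). HMOX1 (0.69) and PRDX1 (0.41) were not called, and GCLC and ME1 were at 0.84 and 0.75 after the GC correction. Among the regulators, KEAP1 was at 4.79, 5.01 and 5.00 FPKM in MHCC97H and 41.2, 36.1 and 37.2 in PLC/PRF5, and the NRF2 gene NFE2L2 had means of 53.9 and 43.4 and was not called. MAFG, a small MAF partner of NRF2, was higher by 2.29.

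The core of the antioxidant response element, TGACNNNGC, was found in 4 of the 19 list genes with a promoter entry (21.1%) and in 13.6% of all promoters of that length. It is shown here in 3 of the genes that were higher in MHCC97H, with matches on either strand in capitals and the same limits around the start as above. The match begins 34 bases before the start in GCLM, 122 in GPX2, and 99 for the first of 2 matches in TXNRD1.
GCLM: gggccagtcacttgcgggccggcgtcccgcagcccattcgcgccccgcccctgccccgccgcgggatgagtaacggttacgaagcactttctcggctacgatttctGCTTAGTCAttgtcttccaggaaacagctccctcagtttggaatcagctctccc
TXNRD1: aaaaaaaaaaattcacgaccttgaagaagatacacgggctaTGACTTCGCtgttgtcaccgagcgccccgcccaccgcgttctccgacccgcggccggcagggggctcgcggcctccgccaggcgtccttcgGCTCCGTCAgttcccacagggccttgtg
GPX2: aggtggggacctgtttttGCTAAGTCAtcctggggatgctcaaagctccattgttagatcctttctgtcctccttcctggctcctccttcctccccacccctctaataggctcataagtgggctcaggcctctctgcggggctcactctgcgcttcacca
These lie at chr1:93909411-93909570 (minus strand), chr12:104215639-104215798 (plus strand) and chr14:64942726-64942885 (minus strand). Elements further from the start lie outside these windows.

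The enzymes of drug and aldehyde metabolism did not follow the plasma proteins: 16 of 28 tested were higher in MHCC97H and 6 lower. CYP27A1, which starts the acidic pathway of bile acid synthesis, was at 47.0, 46.9 and 52.5 FPKM in MHCC97H and 0.0234, 0 and 0.0588 in PLC/PRF5. CYP4F11 and CYP1B1 were higher by 4.60 and 3.598, and CYP1A1 was lower, at 0.852, 0.405 and 0.628 against 11.5, 9.99 and 11.7. The main adult liver cytochromes CYP3A4, CYP2E1 and CYP1A2 stayed below 1 FPKM in both lines. ALDH3A1, an aldehyde dehydrogenase, was at 359, 394 and 454 FPKM against 0.771, 1.01 and 0.871, and ADH1C, an alcohol dehydrogenase, was at 28.5, 31.0 and 32.9 against 0.0475, 0 and 0. Among the conjugating enzymes the lines used different forms. GSTA1 was at 33.0, 33.2 and 35.4 FPKM in MHCC97H and listed at 0 in PLC/PRF5, whereas GSTP1, a glutathione transferase more typical of tissues outside the adult liver, was at 92.2, 106 and 114 against 1666, 1771 and 1615 (difference -4.01, SE 0.09). UGT1A6 was higher by 5.52 and UGT2B4 was listed at 0 in MHCC97H and at 7.69, 9.96 and 8.97 in PLC/PRF5. Members of UGT1A share their last exons, and GSTA1 resembles GSTA2, so the values of single members are uncertain. NNMT, which methylates nicotinamide, was at 0.0252, 0 and 0.0249 against 7.87, 8.54 and 8.24.

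Efflux pumps went in both directions. ABCC3, an export pump for conjugated bile acids and drugs, was at 38.9, 45.5 and 44.5 FPKM against 0.142, 0.195 and 0.224. ABCG2 was at 66.3, 63.9 and 59.3 against 9.05, 8.71 and 10.1, and ABCC2, the canalicular pump, at 195, 198 and 173 against 62.3, 54.4 and 66.5. The copper pump ATP7B was lower, at 0.336, 0.410 and 0.365 against 7.10, 4.91 and 6.29, as were ABCC6, another pump of the ABC family, at 1.38, 1.44 and 1.47 against 7.51, 8.07 and 8.84, and the uptake carrier SLCO2B1 (-1.60). Of 9 transporters tested, 4 were higher and 3 lower, and the hepatocyte uptake carriers SLC10A1 and SLCO1B1 were below 1 FPKM in both lines.

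In glycolysis the lines differed in which isoforms they used. HK1, a hexokinase of most tissues, was at 39.5, 41.8 and 47.0 FPKM in MHCC97H and 7.95, 7.22 and 8.63 in PLC/PRF5, whereas HK2, the form induced in many tumours, was at 0.0268, 0.0418 and 0.113 against 7.27, 6.05 and 6.61. The glucose carrier SLC2A3 was at 0.687, 0.633 and 0.597 against 40.2, 37.96 and 40.4, while SLC2A1 had means of 23.6 and 23.2 and was not called. PFKL, the liver form of phosphofructokinase, was at 20.0, 20.8 and 23.8 FPKM in MHCC97H and 64.6, 61.6 and 59.9 in PLC/PRF5 (difference -1.49, SE 0.09, adjusted p = 6.33e-07, limma). The muscle and platelet forms PFKM (-0.15) and PFKP (-0.30) were not called. PFKFB3 and PFKFB4, which make the activator of that step, were lower, at -1.24 and -2.26.

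Further down, LDHB separated the lines as given above, while LDHA had means of 398 and 619 FPKM and was not called. ENO2 was at 14.7, 13.9 and 14.2 against 0, 0.0319 and 0, and ALDOC at 5.47, 5.43 and 5.92 against 34.7, 34.8 and 36.7. The lactate exporter SLC16A3 was at 46.1, 51.8 and 52.6 FPKM in MHCC97H and 0.275, 0.328 and 0.198 in PLC/PRF5. Across 37 tested genes of glycolysis and gluconeogenesis 6 were higher and 14 lower. Of the 6 lower genes of lower glycolysis, 4 lost their call with the GC correction, namely GAPDH (-0.86), ALDOA (-0.84), PGAM1 (-0.84) and TPI1 (-0.81).

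Most genes of sterol synthesis were lower in MHCC97H, with 10 of 14 genes called lower, none higher, and 11 lower after the GC correction. HMGCS1, which makes the precursor of mevalonate, was at 11.9, 11.02 and 8.50 FPKM in MHCC97H and 59.9, 73.0 and 63.9 in PLC/PRF5. MVD and LSS were also lower, at -3.11 and -2.34. SREBF2, the factor that drives the pathway, was at 16.1, 16.6 and 18.9 against 61.5, 53.3 and 61.6. FDFT1 (0.49) was not called. Genes of fatty acid metabolism gave 2 higher and 5 lower of 19. CD36, a fatty acid carrier, was at 12.2, 12.04 and 10.4 FPKM in MHCC97H and 0.0831, 0.0297 and 0.0494 in PLC/PRF5, and SCD, the desaturase, at 160.0, 162 and 166 against 490.3, 399 and 479.7. FASN (-0.21) was not called.

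Of 6 tested genes for metallothioneins and zinc handling 4 were lower in MHCC97H and 1 was higher. The lower ones included the 3 tested metallothioneins, small proteins that bind zinc and copper. MT2A was at 3.47, 3.90 and 4.24 FPKM against 300.2, 333 and 296 (difference -5.996, SE 0.09), MT1X at 2.70, 1.28 and 2.65 against 72.1, 72.0 and 69.2, and MT1G was listed at 0 against 3.95, 2.97 and 2.89. These genes are close copies of each other and can share reads. The zinc importer SLC39A14 was the other lower gene (-1.44). The zinc exporter SLC30A1, which the same metal-sensing factor controls, was at 30.7, 26.7 and 25.8 against 10.3, 13.6 and 12.51 (1.13, and 0.57 after the GC correction), and that factor, MTF1, had means of 2.96 and 2.00 and was not called. TGCGCNC, a form of the core of the metal response element, is shown in capitals in the pair of metallothionein genes with the most RNA. The stretches run from 163 and 160 bases before the annotated start to the 20th base of the transcript. Other forms of the core, such as TGCACNC, were not searched for and are left in lower case.
MT2A: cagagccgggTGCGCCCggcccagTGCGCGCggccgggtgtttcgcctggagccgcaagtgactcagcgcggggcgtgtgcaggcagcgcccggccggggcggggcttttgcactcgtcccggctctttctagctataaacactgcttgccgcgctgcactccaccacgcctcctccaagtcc
MT1X: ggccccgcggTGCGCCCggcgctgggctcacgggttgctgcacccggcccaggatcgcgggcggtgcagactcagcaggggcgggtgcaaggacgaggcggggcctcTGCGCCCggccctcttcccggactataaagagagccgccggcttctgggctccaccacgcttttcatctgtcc
These lie at chr16:56608421-56608603 and chr16:56682310-56682489, both on the plus strand. The first of 2 matches in each begins 153 and 150 bases before the start, and 20.0% of all promoters hold at least 1 match.

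Iron genes went in both directions, with 2 higher and 2 lower of 7. FTL, the ferritin light chain, was at 10779.8, 11199 and 11539 FPKM in MHCC97H and 4061, 4162 and 3945 in PLC/PRF5, and SLC40A1, the iron exporter, at 62.6, 54.3 and 46.4 against 5.31, 9.22 and 7.67. FTH1, the heavy chain, had means of 3494 and 1881 and was not called. TFRC, which imports transferrin-bound iron, was at 155 and 238 on average and was not called.

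Keratins 8 and 18, the pair present in hepatocytes, were abundant in both lines. KRT8 was at 970.5, 1085 and 1251 FPKM in MHCC97H and 1229, 1199.9 and 1186 in PLC/PRF5, ranges that overlapped (difference -0.14, adjusted p = 0.226, limma). KRT18 was at 473, 504 and 574 against 1193, 1105 and 1104 and was -0.64 after the GC correction. KRT20, a keratin of gut epithelium, was at 288, 312 and 305 against 9.14, 12.501 and 12.01, and KRT23 was lower at 0.124, 0.139 and 0.0993 against 16.7, 16.6 and 17.8.

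Epithelial and mesenchymal genes did not divide by line. The epithelial cadherin CDH1 was at 2.29, 2.49 and 2.40 FPKM in MHCC97H and 0, 0.00745 and 0.00777 in PLC/PRF5, and the neural cadherin CDH2 was also higher, at 37.3, 34.8 and 34.8 against 0.441, 0.348 and 0.509. VIM, the mesenchymal intermediate filament, was at 6.55, 6.38 and 6.48 against 7.45, 7.14 and 7.71 (difference -0.17, adjusted p = 0.0941, limma) and was not called. Among the tight junction genes CLDN4 was at 50.9, 58.2 and 26.6 against 0.848, 1.54 and 1.05, whereas CLDN1 was at 0.610, 0.553 and 0.635 against 81.9, 93.9 and 88.8. ZEB1 and SNAI1, repressors of CDH1, were higher by 1.59 and 1.27, and TWIST2, TGFBI and the receptor kinase AXL were lower, at -1.78, -2.55 and -2.72. Epithelial genes gave 6 higher and 3 lower of 15, and mesenchymal genes 5 higher and 4 lower of 10.

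S100 genes lie together on chromosome 1 and were not called in 1 direction. S100A4, linked to cell motility, was at 1031, 1158 and 1327 FPKM against 15.6, 20.1 and 12.6, and S100A3 at 30.5, 36.6 and 37.3 against 0.951, 1.48 and 1.15. S100A14 was at 0, 0.134 and 0 against 54.8, 64.8 and 49.1, S100A16 at 53.5, 57.2 and 63.9 against 494, 501 and 474, and S100A9 was listed at 0 against 15.4, 18.1 and 11.4. Within 1 Mb either side of S100A6, 29 genes were tested, of which 5 were called higher and 4 lower. Neither share was above that over all tested genes (17.6% higher and 19.2% lower). These neighbours outside the lists were chosen after their values were seen.

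Several genes of the extracellular matrix and most proteases and inhibitors tested were higher in MHCC97H. SPP1, which encodes the secreted adhesion protein osteopontin, was at 291, 264 and 229 FPKM in MHCC97H and 0, 0.0791 and 0 in PLC/PRF5 (difference 7.99, SE 0.11). FN1, fibronectin, was at 1464, 1607 and 1663 against 369.8, 238 and 361, and the collagen VI chains COL6A1 and COL6A2 differed by 4.18 and 4.28. Of 16 proteases and inhibitors tested 12 were higher and none lower, with a median of 1.95. MMP7, a secreted metalloproteinase, was at 195, 186 and 196 against 1.41, 1.78 and 1.62. Proteases and their inhibitors were higher together, as MMP2 (3.28), MMP14 (2.79) and PLAU (3.46) stood beside TIMP1 (3.71) and TIMP3 (5.24). Integrins gave 2 higher and 4 lower of 10. ITGA3, a laminin receptor chain, was at 40.4, 44.6 and 50.8 against 6.11, 4.59 and 5.72, and ITGA5, the fibronectin receptor chain, at 9.08, 10.8 and 11.7 against 69.9, 52.5 and 65.0. ITGAV was called higher (1.15) and was 0.52 after the GC correction.

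MET, the receptor for hepatocyte growth factor, was at 1832, 1750.5 and 1581 FPKM in MHCC97H and 38.8, 37.5 and 43.8 in PLC/PRF5 (difference 5.39, SE 0.09, adjusted p = 5.68e-10, limma). Its gene lies at chr7:116672390-116798386, and the neighbouring genes were examined after this value was seen. CAV1, which coats caveolae, was at 1494, 1309.7 and 1221 FPKM against 23.1, 28.6 and 27.2, and CAV2 at 1696, 1445 and 1271 against 9.06, 12.7 and 11.5. TES was at 364, 345 and 312 against 29.2, 32.9 and 30.3, and MDFIC at 231, 195 and 153 against 0.180, 0.190 and 0.193. Thus 5 of the 8 genes tested within 2 Mb of MET were called higher, with a median of 4.41 over the 8 (4.08 after the GC correction). CAPZA2 (0.98) and LSM8 (0.69), on the other side of MET, were not called, and ST7 was lower, at -1.09.

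Of 16 growth factor receptors tested, MET included, 3 were higher in MHCC97H and 7 lower. FGFR4, the receptor through which FGF19 signals in liver, was at 25.4, 27.0 and 28.7 FPKM against 165, 162 and 160.1, and its co-receptor KLB was at 0.145, 0.0964 and 0.158 against 2.75, 3.12 and 3.13. FGFR3 and FGFR1 were lower, at -3.44 and -3.13, and ERBB2 and ERBB3 were at -2.45 and -1.80. NRG1, a ligand of ERBB3, was at 33.4, 30.2 and 31.8 FPKM in MHCC97H and 0, 0.00880 and 0.00488 in PLC/PRF5. MDK, the heparin-binding factor midkine, was at 261, 285 and 343 against 17.3, 23.3 and 15.52. AREG, a ligand of EGFR, was lower at 7.05, 5.87 and 5.78 against 48.8, 57.7 and 54.6. CCN1 and CCN2, secreted targets of the YAP pathway, were lower, at -4.42 and -2.70, and YAP1 itself (0.35) was not called.

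Among secreted signals of inflammation 9 of 14 tested were lower in MHCC97H and 3 higher. GDF15, a stress-induced factor, was at 43.7, 41.3 and 48.4 FPKM against 819, 881 and 777. CXCL8 and CCL20, which attract neutrophils and lymphocytes, were at 3.19, 2.32 and 1.91 against 41.4, 68.7 and 54.9 and at 1.95, 2.31 and 2.21 against 39.0, 67.3 and 46.4. CXCL5 was the reverse, at 10.9, 9.38 and 8.90 FPKM in MHCC97H and listed at 0 in PLC/PRF5. LCN2, an iron-scavenging protein of inflammation, was at 11.1, 10.6 and 11.1 against 0, 0.150 and 0.

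Cancer-testis antigens, proteins of germ cells that tumours can switch on and that lie mostly on the X chromosome, were nearly all lower in MHCC97H. Of 30 tested genes 27 were lower in MHCC97H (26 after the GC correction) and none was higher, with a median of -3.74. Most of the 30 passed the limit for testing only through PLC/PRF5, and 17 further list members were below the limit for testing. MAGEA4 was at 0, 0 and 0.0406 FPKM in MHCC97H and 185, 209 and 209 in PLC/PRF5. CTAG2 was listed at 0 in MHCC97H and at 129, 146 and 116 FPKM in PLC/PRF5, and XAGE1A and XAGE1B, which share nearly all their sequence, were also listed at 0 there. The MAGE genes were not all near 0 in MHCC97H. MAGEA3 and MAGEA6, near-identical to each other, were at 31.9, 32.1 and 32.6 and 22.6, 21.0 and 22.99 FPKM in MHCC97H against 87.9, 99.0 and 91.5 and 64.9, 77.9 and 65.0, and MAGEA3 was just under the limit for a call after the GC correction. MAGED1 (0.84), a member expressed in many tissues, was not called. PRAME, on chromosome 22, was at 0.166, 0.104 and 0.0128 against 25.1, 22.2 and 25.0, so the list was not limited to the X chromosome.

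The machinery that presents antigens to T cells was lower in part. HLA-B was at 0.682, 0.622 and 0.748 FPKM in MHCC97H and 17.7, 21.3 and 17.5 in PLC/PRF5, and HLA-C at 8.57, 8.13 and 9.35 against 57.5, 64.0 and 55.2. These genes are highly variable between people, so reads from a line's own alleles may align unequally, which was not tested. B2M, the shared light chain, had means of 463 and 240.3 and was not called (0.96), and the immunoproteasome subunit PSMB8 was higher, at 7.30, 6.96 and 7.10 against 0, 0.199 and 0.0830. Over the whole stretch of chromosome 6 from HLA-F to TAPBP (chr6:29722775-33314387), a region chosen after values were seen, 65 of 87 tested genes were called lower and 2 higher, with a median of -1.55 (-1.09 after the GC correction). Over all tested genes 19.2% were called lower. The count of 65 is from before the correction. Most of the 65 kept their call with it, but many lost it. Among those were HLA-F (-0.72), CLIC1 (-0.63), RXRB (-0.78), NRM (-0.67), FKBPL (-0.66), B3GALT4 (-0.53), ATF6B (-0.74), BRD2 (-0.83) and VARS1 (-0.84).

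Interferon-stimulated genes were divided, with 6 higher and 6 lower of 20. STAT2, which relays interferon signals to the nucleus, was not called (0.25). IFI6 and BST2 were lower, at 2.28, 1.56 and 2.03 against 32.2, 45.7 and 33.9 and 0, 0.114 and 0.141 against 6.86, 7.87 and 6.85. IFITM3 was at 111, 112 and 128 against 418, 446 and 412, and ISG15 differed by -1.65 (-0.94 after the GC correction). OAS2, an antiviral sensor, was at 5.395, 4.95 and 5.13 against 0.178, 0.0858 and 0.0481, and IRF7 and STING1 were higher by 2.47 and 2.36.

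In the Wnt pathway 9 of 25 genes were higher in MHCC97H and 3 lower. AXIN2, a feedback target of beta-catenin, was at 20.5, 21.2 and 22.9 FPKM against 1.84, 1.94 and 1.98, and NKD1 and NOTUM, further feedback targets, were higher by 1.54 and 1.79. WNT5A was at 17.7, 16.1 and 16.5 FPKM in MHCC97H and listed at 0 in PLC/PRF5. The inhibitor DKK1 was at 127, 111 and 102 against 17.5, 24.0 and 19.7, and the factor LEF1 was listed at 0 in MHCC97H and at 3.59, 4.21 and 4.22 in PLC/PRF5. CTNNB1, beta-catenin itself, had means of 80.7 and 116 and was not called.

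Most genes of the cell cycle were not called. Of 26 proliferation genes 2 were higher, 3 lower, and the median was 0.069, with MKI67 at means of 26.1 and 23.6 FPKM. CENPF was called higher (1.72), as was TOP2A (1.28, and 0.74 after the GC correction), and AURKA was lower at 37.0, 36.0 and 40.1 against 116, 113 and 119.8. Among 33 tumour suppressors and oncogenes 4 were higher and 5 lower. MYC was at 95.6, 91.8 and 94.6 FPKM in MHCC97H and 22.1, 25.1 and 25.3 in PLC/PRF5. DLC1, a GTPase-activating protein and tumour suppressor of liver, was listed at 0 in MHCC97H and at 4.14, 3.93 and 4.82 FPKM in PLC/PRF5.

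EGR1, the zinc finger factor the study altered, was itself unequal at baseline. It was at 20.2, 23.1 and 21.2 FPKM in MHCC97H and 1.97, 1.43 and 2.03 in PLC/PRF5, a difference of 3.01 (SE 0.12, adjusted p = 4.61e-08, limma). The exact permutation test over the libraries gave a two-sided p of 0.1, its smallest possible value. Of 26 immediate early genes and EGR1 partners tested, EGR1 included, 11 were higher and 3 lower. Growth signals switch such genes on within minutes. FOS was at 6.24, 5.13 and 8.49 against 1.36, 1.29 and 1.04, and DUSP5 and SPRED1, which restrain the ERK pathway, were higher by 1.90 and 2.43. DUSP1, a phosphatase of stress kinases, was far lower at 6.12, 6.95 and 6.595 against 163, 171 and 174, and IER3 was at 44.5, 47.3 and 46.3 against 247, 277 and 265.

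Markers of other cell types were low or absent. Of 26 markers of fibroblast, endothelial and blood cells in the file, 22 were below the limit for testing, and the defining markers PTPRC, CD3E, MS4A1, VWF, COL1A1, COL1A2, DCN and CDH5 were below 0.3 FPKM on average in both lines. Summed FPKM of the whole list was 44.2 to 44.8 in MHCC97H and 156.5 to 219.6 in PLC/PRF5. LYZ, the lysozyme gene, made up most of the latter, at 0.101, 0 and 0.139 FPKM against 113, 178 and 136, and LUM, a matrix proteoglycan, was at 10.9, 7.396 and 7.77 against 0.320, 0.384 and 0.242. Of 15 reference genes 6 were lower and 1 higher, with a median of -0.34 that was 0.079 after the GC correction. GAPDH was at 1956, 2147 and 2396 FPKM against 6003, 5597 and 5647, whereas ACTB (-0.37) and TBP (0.05) were not called.

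By chromosome the median difference ran from -0.63 on chromosome 19 to 0.50 on chromosome 18 among the autosomes. Chromosomes 6 and 13 had medians of -0.51 and -0.46, and these were -0.60 and -0.78 after the GC correction, with 34.4% and 30.6% of their tested genes called lower. Chromosomes 7, 8 and 12 had medians of 0.40, 0.41 and 0.40 (0.31, 0.26 and 0.31 corrected), with 28.7%, 29.1% and 27.1% called higher. The median of chromosome 19, the chromosome with the highest transcript GC content, was -0.30 after the correction. Chromosome 18 was at 0.15 after it.

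The same 2 lines were also compared in the 6 libraries in which EGR1 had been altered, which share no library with those above. In these EGR1 was at 35.2, 50.3 and 32.9 FPKM in the MHCC97H libraries labelled EGR1 knockout and 56.3, 50.2 and 52.2 in the PLC/PRF5 libraries with EGR1 overexpression. The mRNA level was thus not lower in the libraries labelled knockout than in the parental libraries, and mRNA alone does not check a CRISPR edit. Of 12094 genes tested, 1643 were called higher in MHCC97H (13.6%) and 2171 lower (18.0%). Of the 4251 baseline calls also tested there, 3846 (90.5%) had the same direction, 2390 (56.2%) were called in that direction and 22 were called in the opposite one. Over all 12 libraries the values of the lines did not overlap for 3563 of the 4431 called genes (80.4%). These genes were called on 6 of the same 12 libraries, so part of this separation was selected for. In those 6 libraries alone the ranges did not overlap for 81.0% of all tested genes. The shares with the same direction and without overlap over 12 libraries were not obtained for all tested genes.

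Several genes that led the baseline comparison had the same sign there, with differences of 9.95 for AKR1B10, 8.82 for LDHB, -11.11 for SERPINA1, -8.59 for CPS1 and 4.67 for MET. APOA1 and RBP4 were at -6.49 and -5.17 in the altered libraries against -1.63 and -1.86 at baseline, a change that was not tested. Among the 22 opposite calls, of which the next 4 were chosen after their values were seen, VCAN, a matrix proteoglycan, had mean FPKM of 20.0 in parental MHCC97H, 2.51 in control PLC/PRF5, 0.332 in the knockout-labelled libraries and 3.52 with EGR1 overexpression. HPGD, which inactivates prostaglandins, had 57.7, 8.41, 16.9 and 49.6 in the same order. ROCK1 and CENPE had baseline differences of 1.17 and 1.18 and differences of -1.06 and -1.05 in the altered libraries, and both were under 1 at baseline after the GC correction.

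**Figure D3:**
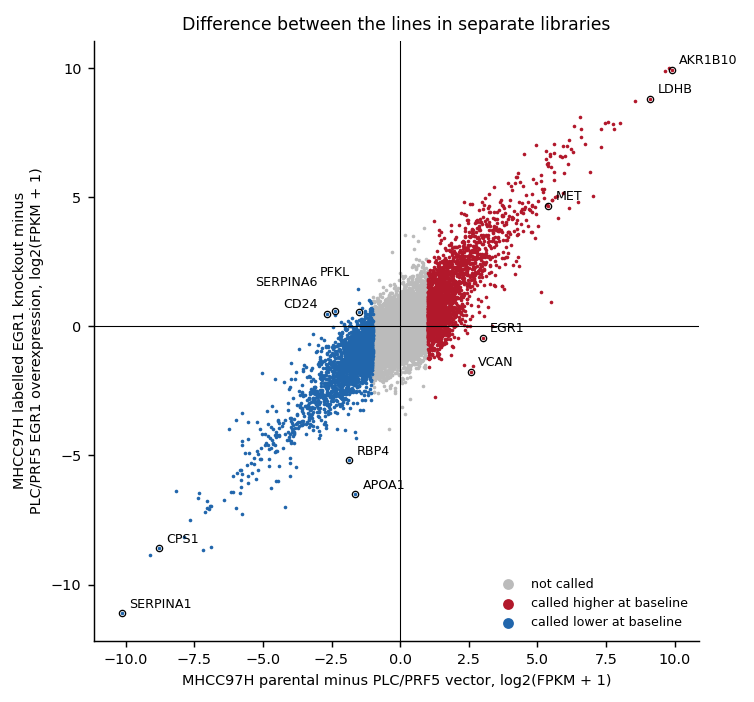
Each point is 1 gene tested at baseline, whether or not it reached the limit for testing in the libraries with altered EGR1. The x axis is its difference between the lines at baseline and the y axis that in the altered libraries, both in log2(FPKM + 1) and MHCC97H minus PLC/PRF5. Red and blue mark genes called higher and lower at baseline, most of which lie in the quadrants of equal sign, while EGR1, PFKL, CD24, SERPINA6 and VCAN lie in those of opposite sign.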

How the data were processed

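RNA of 12 libraries (3 per group) was sequenced on the Illumina platform, and the 6 libraries of parental MHCC97H and control PLC/PRF5 were compared. The authors deposited FPKM values per gene for each library, without pooling replicates, and the submitters' processing notes name StringTie and hg38. The aligner, the annotation and the strand setting of counting are not given in the sources used here. The depth could not be obtained from FPKM, so no interval for counting error is given.

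Genes whose FPKM averaged at least 1 over the 6 libraries were tested with limma 3.58.1 in R 4.3.3, with an intensity trend, on log2(FPKM + 1), two-sided, with Benjamini-Hochberg adjustment over all 12046 genes. Calls needed an adjusted p under 0.05 and a difference of at least 1. The members and gene lists were chosen with earlier results of these data known. The genes named were the 15 largest differences in each direction, up to 3 called genes per direction in each role of a list, and a fixed set of defining genes. Further list members were named after their values were seen. Coordinates and GC content came from GENCODE release 29 (GRCh38), which matched 99.3% of the 19932 gene names. Promoters came from RefSeq. The GC and length correction removed a spline trend (5 degrees of freedom) from each library's deviations. The fit was tested on simulated data. Alternatives were the pseudocount, the filter, the scaling, the trend, all 12 libraries, the replicate block, the correction, stricter limits and leaving out each library. Some list members are not reported here by name. Levels of sex-linked genes used to tell samples apart are not given. Replicate numbers did not pair the libraries, by the correlations given with the alternatives. Figures were drawn with matplotlib 3.10.9.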

Additional observations from a re-analysis of the deposited data

Results flagged for a closer look

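Of the tested genes named here, 19 had the opposite order of the lines in the libraries with altered EGR1. In these, every library of each comparison was on its own side, and the difference between the comparisons was not tested. VCAN, HPGD, ROCK1 and CENPE were named because their calls were opposite, so they are in this count by selection. The share of such genes among all tested genes was not obtained, so the count cannot show whether 19 is many or few. Values are MHCC97H minus PLC/PRF5 on the log2(FPKM + 1) scale, first at baseline and then in the altered libraries. VCAN, HPGD, ROCK1 and CENPE, called in both comparisons, had 2.58 and -1.76, 2.65 and -1.54, 1.17 and -1.06, and 1.18 and -1.05. The baseline values of ROCK1 and CENPE were 0.56 and 0.40 after the GC correction. CD24, a surface protein of progenitor cells, had -2.67 and 0.50. SERPINA6, which encodes the corticosteroid carrier of plasma, had -2.39 and 0.59. The glycolytic genes PFKL and ALDOA had -1.49 and 0.55, and -1.21 and 0.48, with -0.84 for ALDOA at baseline after the correction. ABCC2, a canalicular export pump, had 1.61 and -0.21, and NOTUM, a secreted Wnt inhibitor, had 1.79 and -0.32. IL6ST, the shared receptor chain of the interleukin 6 family, had 1.3996 and -0.66, with a baseline value of 0.66 after the GC correction. ITGAV, an integrin chain, had 1.15 and -0.51, with 0.52 after the correction, and GCLC, of glutathione synthesis, had 1.07 and -0.32, with 0.84 after it. Another 6 genes were not called at baseline. These were ACTB (-0.37 and 0.50), FOXA1 (-0.27 and 0.91), MTF1 (0.40 and -0.17), PFKP (-0.30 and 1.01), VIM (-0.17 and 0.31) and YAP1 (0.35 and -0.65). The line and the EGR1 alteration cannot be told apart in the second comparison, since each line was altered in 1 direction.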

How the results depend on the processing

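The 2123 genes called higher in MHCC97H and the 2308 genes called lower in MHCC97H stayed within 1.5 times of these values under every alternative run except a minimum difference of 2 on the log2 scale, which left 655 higher and 703 lower. The 9607 genes past adjusted p under 0.05 stayed within that range too. With a pseudocount of 0.1 they were 2543 and 2642, after the GC and length correction 1651 and 1866, and with libraries scaled to the same total 2367 and 2058. Scaling to the same total moved the median difference by 0.097 and quantile normalization moved it by 0.025. Leaving out 1 library at a time gave 1966 to 2244 higher and 2247 to 2383 lower genes, 8946 to 9574 past the adjusted p alone, and a GC slope difference of -0.33 to -0.43 (-0.38 with all libraries). Same-numbered replicates did not deviate together (correlations of -0.39, -0.0082 and -0.053), so the numbers do not pair the libraries, and the fit with the replicate block gave 2127 higher, 2309 lower and 9249 past the adjusted p alone. With the block and the correction together the counts were 1650 and 1867.

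Of 3910 values of 230 named genes under the alternatives, 0 changed direction and 105 fell below the limit for a call, 62 of these under the minimum difference of 2. Leaving out a library cost 7 of 1380 values their call, in APOH, C4BPB and SOX4, and the correction cost 14 genes theirs. The depth of the libraries is unknown, 3 libraries of 1 line each stand for each group, and lists of genes near 0 in 1 line passed the filter through the other.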

Other observations

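Beyond the lists, the neighbourhoods of some of the genes with the largest differences were not uniform, and these regions were chosen after values were seen. Within 1 Mb either side of AKR1B10, 4 of 10 tested genes were called higher in MHCC97H (SLC35B4, AKR1B1, AKR1B10 and AKR1B15), none was called lower, SLC35B4 was at 1.38 and at 0.96 after the GC correction, and the median of 0.52 became 0.11 after the GC correction. From MAGEA10 to MAGEA6 on the X chromosome (chrX:152133310-152769747), 9 of 10 tested genes were called lower, with a median of -4.53. Most of these 10 were near 0 in MHCC97H and passed the limit for testing only through PLC/PRF5, so they had to differ. Over all tested genes 17.6% were called higher and 19.2% lower. Loci assembled from the reads, which carry no symbol, were called higher in 141 and lower in 140 of 636 cases.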
